A study of Mus musculus with 8 samples.

Results

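Immediate early genes are transcribed within minutes of neuronal activity, and 33 of them were followed here in the hippocampus of mice with a disrupted copy of Nr2f1. The 33 are a named list of genes that neuronal activity induces, and each symbol matched 1 row of a table of 37310 genes. Hippocampi came from 4 Nr2f1 het mice, heterozygous for a knockout of the nuclear receptor gene Nr2f1, and from 4 WT mice. All 8 were B6.129 F1-hybrid mice, labelled male and 3 months old, were given no treatment, and gave 1 library each. The labels name no Cre driver or tissue-restricted allele. The time of day at which tissue was taken and what the animals did before it are not stated in the labels.

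Activity reaches these genes through calcium entry and growth factor signalling, which activate kinases and, through them, transcription factors already bound at the promoters, such as CREB at cAMP response elements and SRF at serum response elements. The first products include transcription factors (the Fos and Jun families, the Egr zinc fingers, Npas4 and the Nr4a orphan receptors), proteins that act at synapses (Arc, Homer1, Nptx2) and phosphatases or kinases that feed back on the signal (Dusp1, Sik1). In the hippocampus the RNA of many of them is low at rest, rises after exploration or learning, and falls again soon afterwards, so it is widely used as a marker of recent activity. In bulk tissue, more cells that express a gene and more RNA per cell cannot be told apart.

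Libraries held 58717305 to 90043971 gene counts, and a count of 0 allows up to 3 counts, or 0.0333 to 0.0511 CPM; CPM are TMM-normalised counts, scaled to a common library size, and such limits cover counting error only. Nr2f1 (ENSMUSG00000069171.7, chromosome 13) was at 53.4, 49.5, 54.1 and 51.6 CPM in WT libraries 1 to 4 and at 32.4, 31.0, 33.5 and 28.5 CPM in het libraries 1 to 4. The groups did not overlap: the het mean was 60.1% of the WT mean (edgeR adjusted p = 7.32e-05), and p was 0.0286 by an exact permutation test, two-sided, which cannot go lower with 4 libraries each. Although all mice were labelled male, Xist lay between 463.2 and 601.4 CPM, and 14 genes of the Y chromosome summed to just 3 counts over all libraries, which goes against that label. A spike-in ratio that distinguishes the ERCC mixes was 1.2 to 1.28 in odd-numbered libraries and 0.165 to 0.186 in even-numbered ones, in both genotypes. Markers of hippocampal pyramidal and dentate cells, 8 genes, summed to 982.4 to 1070.03 CPM in WT and 867.1 to 1031 CPM in het libraries, with 1 called lower in het and none missing from all libraries. Summed choroid plexus markers, 12 genes, ran from 84.7 to 2122 CPM in WT and from 4116 to 4654 CPM in het libraries, with 0 called and 11 at an unadjusted p under 0.05 in edgeR. Ependymal markers (6 genes, 4 called higher in het) ran from 10.4 to 20.7 against 29.8 to 45.3 CPM, and meningeal markers (7 genes, 0 called) from 89.4 to 231.5 against 315.8 to 373.2 CPM. Striatal markers (6 genes, 1 called higher) summed to 58.4 to 72.3 CPM in WT and 78.7 to 138.6 CPM in het libraries, and thalamic markers (5 genes, 1 called higher) to 94.1 to 110.8 and 118.4 to 155.2 CPM.

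No immediate early gene passed the test for a difference between the genotypes. All 33 had enough counts to be tested, and 0 passed an adjusted p of 0.05 in edgeR's quasi-likelihood test, where 2.99% of all 17913 genes tested did. DESeq2 and limma-voom also called 0 members, where they called 1200 of 17912 and 628 of 17913 genes tested. At an unadjusted p of 0.05 edgeR passed 1 of the 33, Inhba, against 17.2% of all genes. In 15 of the 33 the mean was higher in het and in 18 it was lower, and the median log2 fold change (het over WT) was -0.022, beside -0.0056 over all genes tested. The 95% interval of the log2 fold change was narrow for some members, from -0.12 to 0.12 for Jun, and wide for others, from -1.19 to 0.93 for Fos. Differences inside such an interval remain compatible with the data. The intervals are not adjusted for the number of genes tested. Within the spike-in mixes, 0 members were called among odd-numbered libraries (1 and 3 of each genotype, median 0.054), where 557 of 18006 genes were called. Among even-numbered libraries (2 and 4 of each genotype, median -0.072) 0 members were called, where 78 of 18181 genes were. With so few libraries and calls, these 0 counts say little about the mixes.

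**Figure D1:**
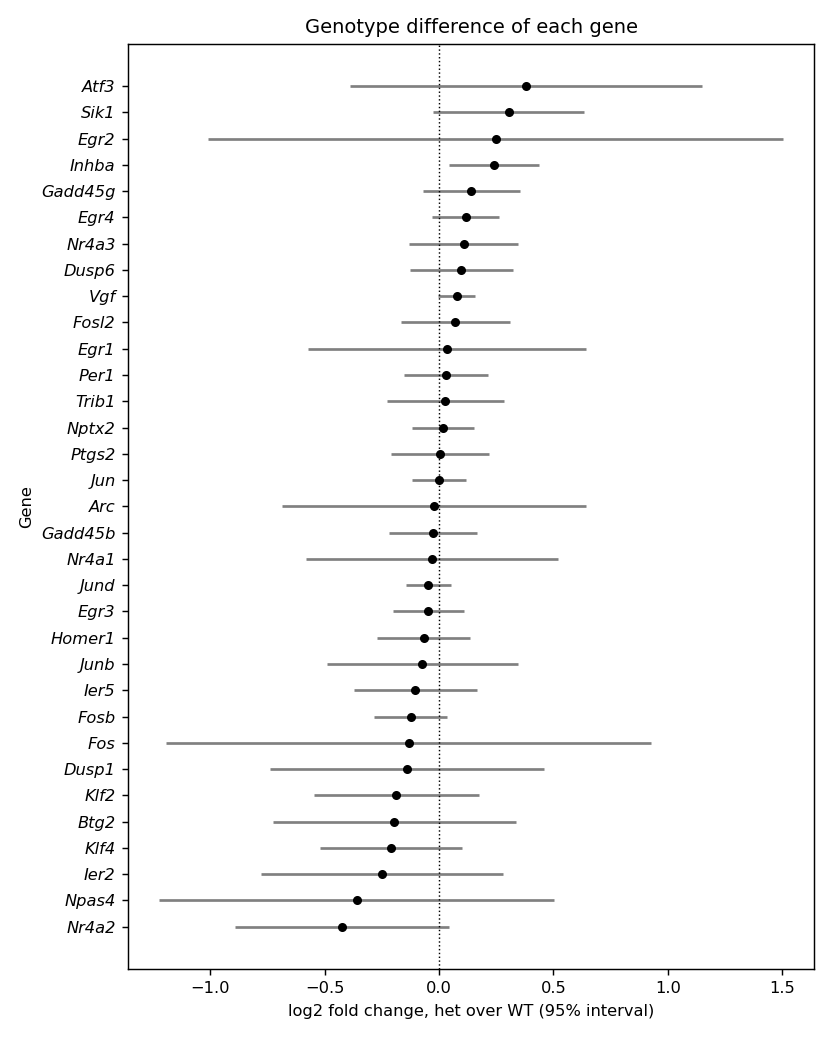
Log2 fold change of het over WT for each of the 33 genes (points) with its 95% interval (lines), ordered by size. Every interval but that of Inhba (0.044 to 0.436) includes 0; those of Egr2, Npas4 and Fos are among the widest.

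The 33 genes varied between individual mice, and many did so in a shared order. WT library 1 held the lowest of the 8 values for 15 of the 33 genes, where 14.0% of all genes tested had their lowest value in that library. WT library 4 held the highest value for 17 of them, against 9.70% of all genes. Within WT, library 4 was highest and library 1 lowest for 22 genes (66.7%), a pattern shown by 7.60% of all genes with a mean of at least 5 CPM. For 14 of these 22, het library 2 was also the highest of the het libraries: Fos, Fosb, Junb, Egr1, Egr2, Egr4, Arc, Npas4, Nr4a1, Ier2, Dusp1, Btg2, Atf3 and Trib1. The triple pattern was thus shown by 42.4% of the 33 members. Among genes of at least 5 CPM it was shown by 3.36%, out of the 7.60% that had the WT order. Egr2 and Atf3 have means under that limit. Among het libraries, library 2 was highest and library 3 lowest for 10 members (30.3%, beside 8.91% of genes of at least 5 CPM). Library 1 was the highest and library 3 the lowest het library for 7 genes, Jun, Egr3, Nr4a3, Dusp6, Homer1, Gadd45b and Ptgs2 (21.2% of members, beside 12.7% of genes of at least 5 CPM). Of these 7, Egr3 and Gadd45b are also among the 22 with the WT order above.

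**Figure D2:**
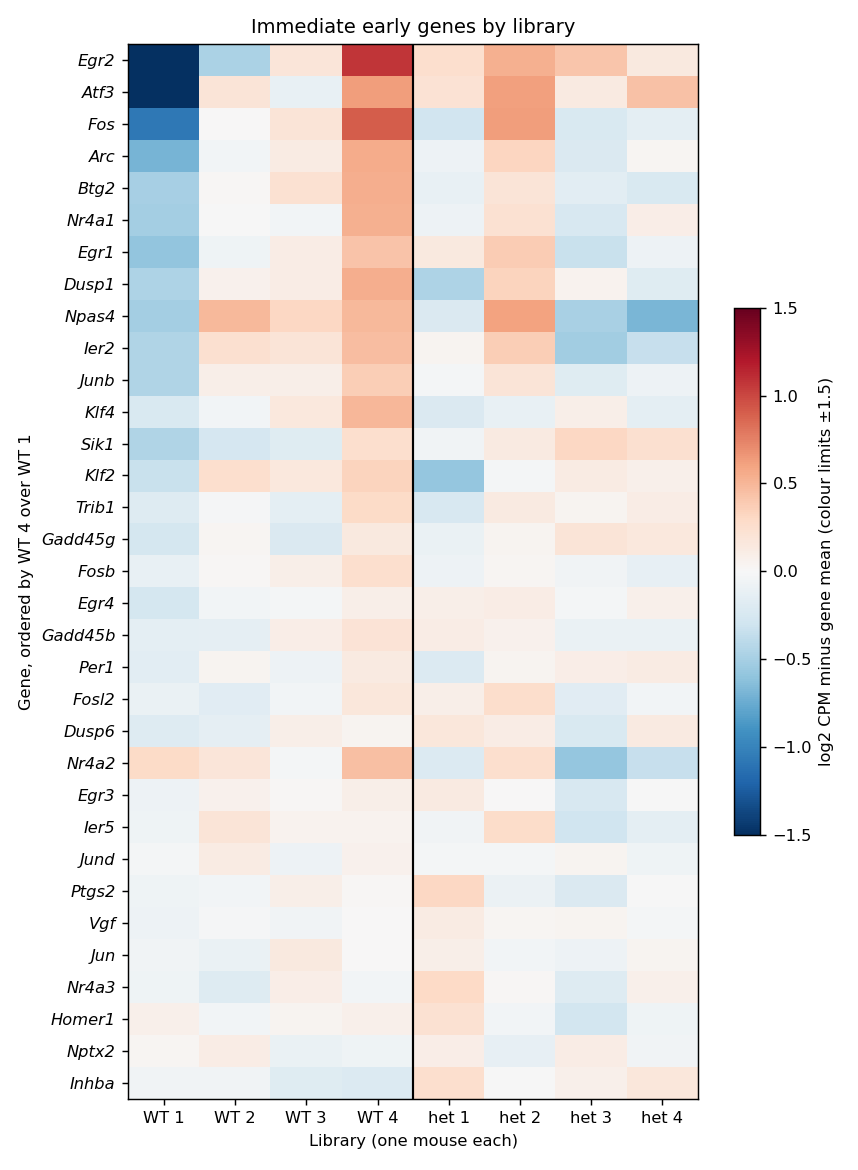
Level of each gene (rows, ordered by WT 4 over WT 1) in each library (columns), as log2 CPM minus the mean of the gene over the 8 libraries; red is above and blue below that mean, and colours stop at 1.5 in either direction. The upper rows are blue in WT 1 and red in WT 4 and het 2, while the lower rows differ little between WT 1 and WT 4.

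Centred on 0 across libraries, the average log2 CPM of the 33 genes was -0.36 in WT library 1, 0.0085 in WT library 2, 0.039 in WT library 3 and 0.28 in WT library 4. In het libraries 1 to 4 it was -0.011, 0.16, -0.095 and -0.029, all inside the range of the WT libraries. WT library 1 was above the mean of the gene for 3 of the 33 and WT library 4 for 30. The same score over the 12 choroid plexus markers was -3.38, -0.23, -1.69 and 0.34 in WT libraries and 1.18, 1.39, 1.17 and 1.22 in het libraries, so the WT library lowest in immediate early genes was also lowest in choroid plexus markers and the highest was also the highest, while het libraries stood above all WT libraries in the second score only. EdgeR was also given the choroid plexus score as a further term. In that fit 0 members were called, 28 of 33 were lower in het and the median log2 fold change was -0.25. At an unadjusted p under 0.05 in edgeR there were 12 members, all lower in het, beside 1 without the score. Over all genes 1 was then called, and the median was -0.0044. Because the score did not overlap between the genotypes, this fit could not separate genotype from the score. The part of choroid plexus tissue in the values of the 33 genes was not tested further. Without WT library 1 the median log2 fold change was -0.065 and without WT library 4 it was 0.059.

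**Figure D3:**
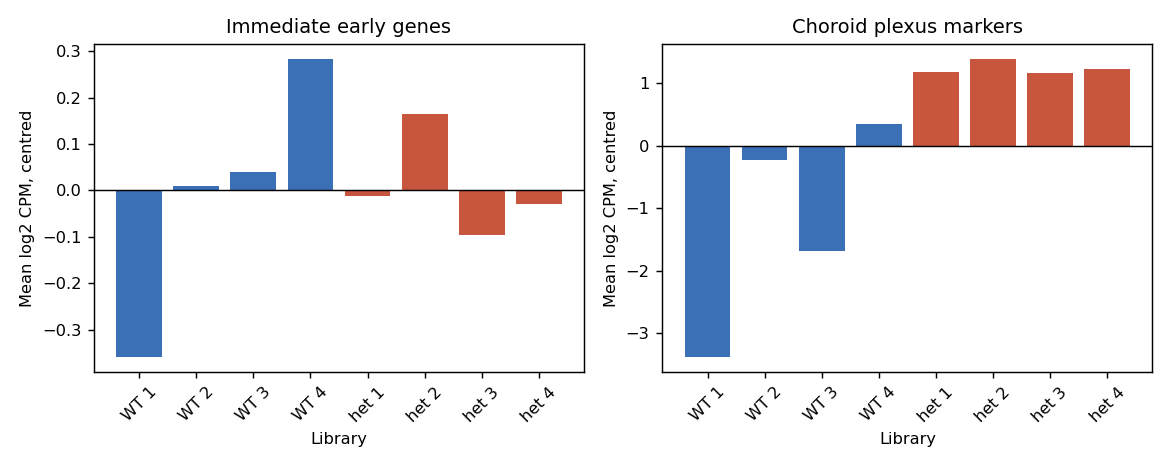
Mean log2 CPM per library, centred on 0, for the 33 immediate early genes (left) and 12 choroid plexus markers (right); blue bars are WT and red bars het libraries, and the vertical scales differ. The left panel runs from -0.36 in WT 1 to 0.28 in WT 4, and the right one from -3.38 in WT 1 to 1.39 in het 2.

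The promoters of some members that moved widely between WT mice are shown because cAMP response elements are a known route from activity to these genes. A RefSeq promoter entry (GRCm38.p6) was found for 25 of the 33. The 8 without an entry were Arc, Egr1, Egr3, Ier2, Nptx2, Sik1, Trib1 and Vgf. Egr2 and Atf3, with the widest WT ranges (9.21-fold and 6.76-fold), are not printed because their means were under 5 CPM. The 250 bases before the start site held TGACG, the core of the cAMP response element, on either strand in 16 of the 25 (64.0%), and in 19.8% of all 27025 genes with an entry. The full palindrome TGACGTCA, which contains the core on both strands, was found in Btg2 and Dusp1 (8.0% of the 25, and 1.77% of all genes), and the CArG box of SRF in Egr2 alone (4.0% and 1.62%). TATAAA, on either strand, was found in 5 of the 25 and in 14.3% of all genes. The AP-1 site TGACTCA was in 0 of the 25 and in 5.16% of all genes. These matches describe the letters of this window only.

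Printed 5′ to 3′ on the strand of the gene, with each TGACG or its reverse complement CGTCA in capitals, are the windows of the 6 genes that have 1 entry, a mean of at least 5 CPM and a highest WT library over 1.7 times the lowest, followed by Jun, which varied little. They lie at chr12:85473640-85473889 (plus strand) for Fos, chr8:84978749-84978998 (minus) for Junb, chr19:4989972-4990221 (minus) for Npas4, chr15:101266596-101266845 (plus) for Nr4a1, chr17:26508473-26508722 (minus) for Dusp1, chr1:134079156-134079405 (minus) for Btg2 and chr4:95052223-95052472 (minus) for Jun. These genes were chosen after their values were seen.
Fos: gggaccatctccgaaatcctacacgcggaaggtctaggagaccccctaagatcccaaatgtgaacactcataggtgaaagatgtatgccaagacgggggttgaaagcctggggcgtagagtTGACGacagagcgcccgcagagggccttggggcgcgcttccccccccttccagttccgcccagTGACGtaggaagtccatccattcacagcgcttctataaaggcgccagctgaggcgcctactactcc
Junb: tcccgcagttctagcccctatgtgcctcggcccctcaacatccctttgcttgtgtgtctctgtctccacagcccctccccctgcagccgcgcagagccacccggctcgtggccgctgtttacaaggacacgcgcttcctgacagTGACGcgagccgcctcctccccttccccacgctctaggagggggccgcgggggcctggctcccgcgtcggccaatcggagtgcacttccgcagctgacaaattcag
Npas4: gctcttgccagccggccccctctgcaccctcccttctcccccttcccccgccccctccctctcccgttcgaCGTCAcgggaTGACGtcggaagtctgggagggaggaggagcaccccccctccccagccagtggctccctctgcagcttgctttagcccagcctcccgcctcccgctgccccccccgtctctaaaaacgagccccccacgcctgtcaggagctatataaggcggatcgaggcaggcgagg
Nr4a1: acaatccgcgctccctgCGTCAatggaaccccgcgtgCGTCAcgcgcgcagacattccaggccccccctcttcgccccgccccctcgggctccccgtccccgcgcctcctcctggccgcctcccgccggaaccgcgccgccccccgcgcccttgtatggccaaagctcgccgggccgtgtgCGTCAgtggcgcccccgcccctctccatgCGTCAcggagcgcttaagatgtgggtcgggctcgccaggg
Dusp1: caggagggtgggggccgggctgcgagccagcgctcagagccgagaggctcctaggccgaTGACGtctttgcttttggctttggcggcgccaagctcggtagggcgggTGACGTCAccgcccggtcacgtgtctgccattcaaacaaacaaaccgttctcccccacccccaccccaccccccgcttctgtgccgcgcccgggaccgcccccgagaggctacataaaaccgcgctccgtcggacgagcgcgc
Btg2: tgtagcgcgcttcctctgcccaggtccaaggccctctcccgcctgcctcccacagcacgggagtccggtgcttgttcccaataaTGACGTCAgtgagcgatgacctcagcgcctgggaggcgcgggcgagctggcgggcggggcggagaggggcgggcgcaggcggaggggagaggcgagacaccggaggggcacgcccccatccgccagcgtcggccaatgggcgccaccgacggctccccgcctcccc
Jun: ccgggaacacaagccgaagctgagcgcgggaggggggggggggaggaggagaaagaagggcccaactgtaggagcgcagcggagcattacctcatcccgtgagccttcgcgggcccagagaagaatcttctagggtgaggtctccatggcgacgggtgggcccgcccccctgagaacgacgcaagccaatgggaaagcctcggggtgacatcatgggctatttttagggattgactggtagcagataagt

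Counting back from the start site, the core began at -129 and -66 in Fos, at -106 in Junb, at -179 and -169 in Npas4 and at -233, -213, -69 and -40 in Nr4a1. The full element began at -143 in Dusp1, which held a further core at -191, and at -166 in Btg2. The Jun window held no exact core. The core was not limited to members that varied: it was also found in Homer1, Nr4a3, Per1, Egr4 and Fosb, whose highest WT library was 1.09, 1.22, 1.23, 1.28 and 1.29 times the lowest.

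In the Fos and Jun families, whose products pair to form the AP-1 transcription factor, 0 of 6 members and 0 of 1 for their relative Atf3 passed the test. Fos (ENSMUSG00000021250.7, chromosome 12) was at 8.50, 17.97, 20.5 and 33.6 CPM in WT libraries 1 to 4 and at 14.7, 27.7, 15.3 and 16.1 CPM in het libraries 1 to 4. The het values lay inside the WT range, which spanned 3.96-fold, and het library 2 stood apart from the other het libraries. Its log2 fold change was -0.13 ± 0.437 (SE; edgeR adjusted p = 0.919). Junb, an AP-1 subunit that often counters Jun, had the same order as Fos in WT and was likewise highest in het library 2 among het libraries, at 39.7, 57.5, 57.7 and 70.1 CPM in WT and 53.3, 62.2, 47.7 and 51.3 CPM in het libraries. The exons of Junb overlap 173 bases of Prdx2 on the opposite strand, and the library kit does not keep the strand. Such overlaps with an antisense gene cover 232 bases of Jun (Junos) and 877 of the 1668 exon bases of Jund (Gm11175), so the values of these genes are uncertain.

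Fosb, whose splice form delta-FosB builds up with repeated activity, showed the order of Fos in WT but over a far smaller range, 13.2, 14.4, 15.2 and 16.99 CPM in WT and 13.5, 14.6, 13.8 and 13.1 CPM in het libraries. Gene counts do not separate its splice forms. The log2 fold change of Fosb was -0.12 ± 0.0734 (SE; edgeR adjusted p = 0.424). Jun had the highest mean of the group at 96.2 ± 7.24 CPM in WT and 96.1 ± 5.15 CPM in het (SD, n = 4 each), at 92.5, 89.5, 106 and 96.5 CPM in WT and 102, 93.03, 90.8 and 98.4 CPM in het libraries. Fosl2 lay between 63.5 and 85.97 CPM in all libraries and Jund between 63.3 and 72.5 CPM, with neither ordered as Fos was. Atf3, a stress and injury response factor, was the lowest member, at 0.133, 0.668, 0.539 and 0.901 CPM in WT and 0.680, 0.890, 0.642 and 0.789 CPM in het libraries; the first value rests on 10 counts and the fourth on 81. Atf3 had the largest fold in this group, a log2 fold change of 0.38 ± 0.351 (SE; edgeR adjusted p = 0.640), and its groups overlapped.

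The 4 Egr genes encode zinc finger factors that bind GC-rich sites and relay the first wave of transcription to later genes; 0 of 4 passed. Egr1 (ENSMUSG00000038418.6) was at 87.98, 127, 143 and 179 CPM in WT and 146, 173, 105 and 126 CPM in het libraries, so the het values again fell within those of WT. Its means were 134.1 ± 37.6 CPM in WT and 137.6 ± 28.8 CPM in het (SD, n = 4 each), with an edgeR adjusted p of 0.967. Egr2, better known for myelination by Schwann cells and also induced by strong activity in neurons, spanned the widest range of any member, at 0.786, 2.49, 3.92 and 7.24 CPM in WT, a 9.21-fold range over 59 to 651 counts, against 4.09, 4.99, 4.59 and 3.82 CPM in het. The SD of log2 CPM of Egr2 was 1.34 within WT and 0.170 within het libraries; the difference in spread was not tested. Egr3, a factor that follows Egr1, was at 56.2, 62.1, 60.1 and 62.7 CPM in WT and 65.1, 59.5, 50.1 and 59.2 CPM in het libraries. Egr4 was at 17.1, 20.01, 20.1 and 21.8 CPM in WT and 21.9, 22.2, 20.1 and 21.6 CPM in het libraries (edgeR adjusted p = 0.415, and 0.208 without WT library 4).

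**Figure D4:**
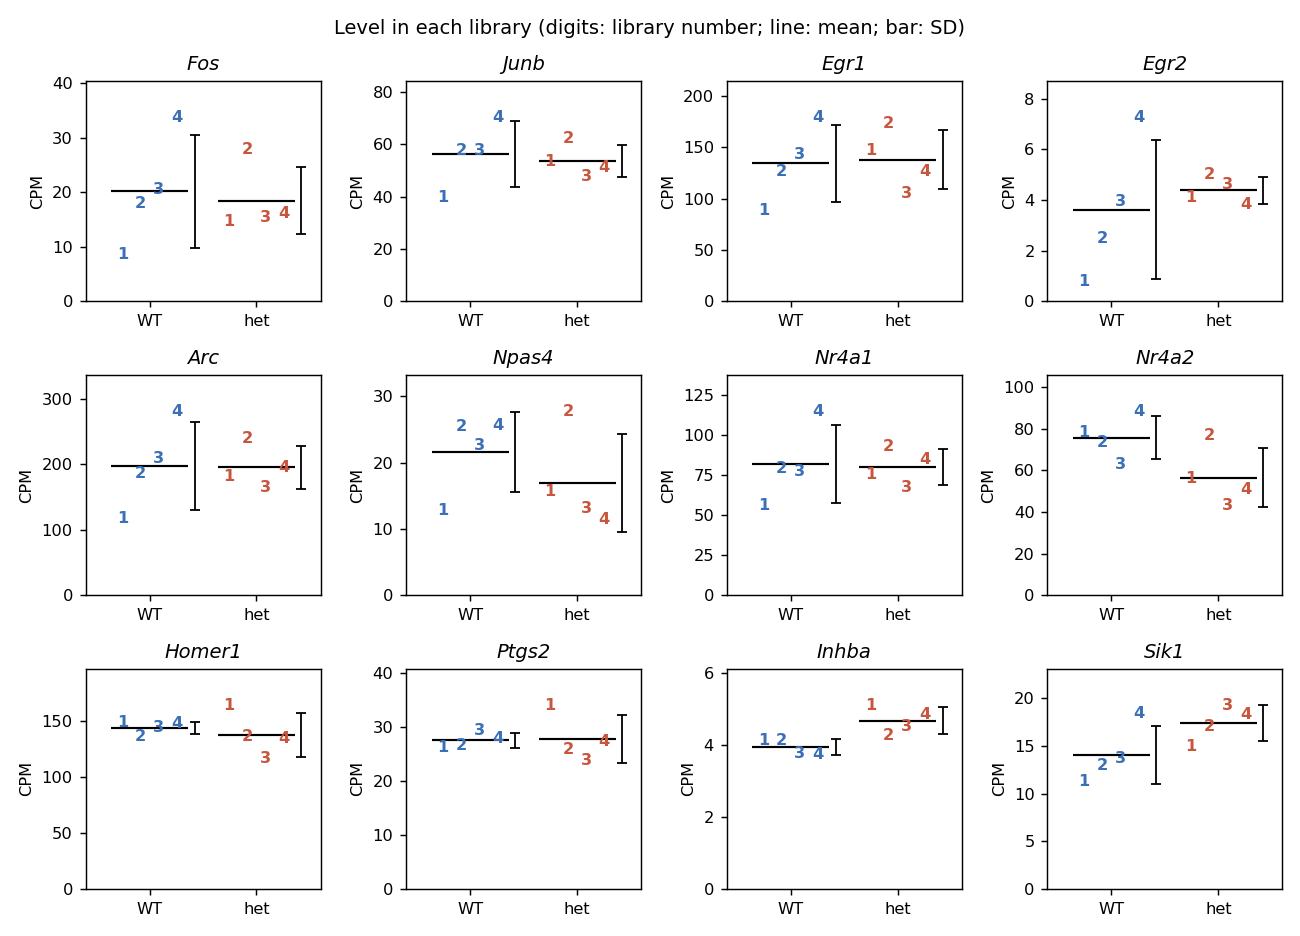
CPM of 12 of the genes in each library; digits give the library number within WT (blue) or het (red), horizontal lines the mean and bars the SD, and every axis starts at 0. Library 1 is lowest and library 4 highest in WT for Fos, Egr1, Egr2, Arc and Nr4a1, and only Inhba shows no overlap between genotypes.

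The Nr4a genes encode orphan nuclear receptors that act without a known activating hormone and are needed for some forms of hippocampal memory; 0 of 3 passed. Nr4a1 (ENSMUSG00000023034.6) was at 55.7, 78.95, 77.1 and 115 CPM in WT and 75.3, 92.7, 67.1 and 84.9 CPM in het libraries, with an edgeR adjusted p of 0.969. Nr4a2 (ENSMUSG00000026826.5) had the largest difference of all 33 genes: it was at 78.4, 73.4, 63.1 and 88.3 CPM in WT and at 55.99, 76.6, 43.02 and 50.7 CPM in het libraries. In 3 het libraries the value was below every WT value and het library 2 was above 2 WT values. The log2 fold change was -0.42 ± 0.195 (SE; edgeR adjusted p = 0.335), -0.61 without het library 2 (edgeR adjusted p = 0.0815), and between -0.27 and -0.61 over the alternatives tried. Nr4a3 had the highest mean of the group and was at 91.1, 83.4, 102 and 92.6 CPM in WT and 118, 96.9, 83.1 and 101 CPM in het libraries, an order unlike that of Nr4a1.

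Among other regulators in the nucleus, Npas4 is a factor found largely in neurons that responds to calcium entry and adjusts inhibitory synapses. Npas4 (ENSMUSG00000045903.8) was at 12.8, 25.5, 22.5 and 25.6 CPM in WT and 15.7, 27.7, 13.02 and 11.3 CPM in het libraries. Het libraries 3 and 4 and WT library 1 were low and het library 2 was the highest of all, so the genotypes overlapped. Npas4 had a log2 fold change of -0.36 ± 0.357 (SE; edgeR adjusted p = 0.675), the largest of these 7 regulators, of which 0 passed. Without het library 2 its value was -0.71 (edgeR adjusted p = 0.291), and over all alternatives it ran from -0.21 to -0.997. Per1, a clock gene that light and activity also induce, had the highest level of the group and a narrow range, at 89.6, 102, 94.9 and 109.9 CPM in WT and 86.8, 102, 107 and 109 CPM in het libraries.

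The remaining nuclear regulators had lower means in het, and none was called. Btg2, an antiproliferative coregulator, ranged from 14.9 to 30.9 CPM in WT and from 18.1 to 24.2 CPM in het libraries. Ier2 and Ier5, which encode small nuclear proteins, ranged over 3.40 to 6.71 and 35.6 to 52.9 CPM across all libraries. Klf2 and Klf4 encode zinc finger factors that are also prominent in blood vessel walls; Klf2 ranged from 3.74 to 7.07 CPM and Klf4 from 5.61 to 9.24 CPM. WT library 1 was the lowest WT library for both, and het library 1 was the lowest of the 8 libraries for Klf2. Summed over 5 endothelial markers, WT library 1 was at 152.2 CPM and the other libraries at 136.6 to 146.7 CPM. The part of vessel cells in the Klf2 and Klf4 values was not tested.

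Of the 6 genes whose products act at synapses or are secreted, 0 passed. Arc (ENSMUSG00000022602.7), which removes AMPA receptors from synapses, followed Fos and Egr1, at 117, 186, 209 and 281 CPM in WT and 182, 239.9, 164 and 195 CPM in het libraries. Its means were 198.0 ± 67.3 CPM and 195.2 ± 32.4 CPM (SD, n = 4 each), with an edgeR adjusted p of 0.980. Homer1 (ENSMUSG00000007617.10), a postsynaptic scaffold whose short form is induced by activity, did not follow Arc: it was at 148, 137, 144 and 148 CPM in WT and 164, 137, 116 and 134 CPM in het libraries. The count is of the whole gene, so the induced short form and the long forms were not told apart. Ptgs2, the inducible cyclooxygenase, was also highest in het library 1 and lowest in het library 3, at 33.9, 25.8, 23.7 and 27.3 CPM, against 26.2, 26.6, 29.2 and 27.8 CPM in WT.

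Nptx2, a secreted pentraxin that gathers AMPA receptors on interneurons, was steady, at 41.1, 43.4, 37.5 and 38.4 CPM in WT and 43.2, 36.9, 43.6 and 38.9 CPM in het libraries. Vgf, a neuropeptide precursor, was at 195, 202, 198 and 206 CPM in WT and 224, 209, 211 and 201 CPM in het libraries. In het libraries 1 to 3 the values of Vgf exceeded all WT values, and the log2 fold change was 0.077 ± 0.0371 (SE; edgeR adjusted p = 0.313). Inhba (ENSMUSG00000041324.7), which encodes a subunit of activin A, a secreted factor of the TGF-beta family, was the only member whose genotypes did not overlap, at 4.13, 4.12, 3.77 and 3.73 CPM in WT and 5.10, 4.25, 4.50 and 4.83 CPM in het libraries. All 4 het libraries lay above all 4 WT libraries for 6.99% of all genes tested and below them for 3.59%, and for 1 and 0 of the 33 members. Inhba had a log2 fold change of 0.24 ± 0.0904 (SE), or 1.18-fold, and did not pass (edgeR adjusted p = 0.185, and 0.138 to 1.00 over the alternatives, the last with scaling to the ERCC spike-ins). Inhba lies on chromosome 13, as do Nr2f1 and the members Homer1 and Gadd45g, whose edgeR adjusted p were 0.764 and 0.502.

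Of 6 feedback regulators 0 passed. Dusp1, a phosphatase that switches off MAP kinases in the nucleus, was at 16.2, 23.5, 24.2 and 32.8 CPM in WT and 16.3, 28.3, 23.3 and 19.7 CPM in het libraries. Dusp6, a phosphatase specific to ERK kinases, had the highest mean of the group and was at 54.2, 56.6, 66.2 and 63.9 CPM in WT and 70.1, 67.3, 52.9 and 68.04 CPM in het libraries, where library 3 stood apart. Sik1 (ENSMUSG00000024042.6), a kinase that holds back the CREB coactivators, was at 11.3, 12.996, 13.6 and 18.4 CPM in WT and 14.9, 17.03, 19.3 and 18.3 CPM in het libraries. WT library 4 lay among the het values and the other WT libraries below all of them. Sik1 had the largest difference of the group, a log2 fold change of 0.30 ± 0.144 (SE; edgeR adjusted p = 0.328). Without WT library 4, the library highest in most members, it was 0.47 and passed (edgeR adjusted p = 0.0146). Over the other alternatives the adjusted p of Sik1 ran from 0.0855 to 1.00, the last with scaling to the ERCC spike-ins. Its log2 fold change ran from -0.047, when adjusted for the choroid plexus score, to 0.47 among odd-numbered libraries.

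Gadd45b and Gadd45g, linked to DNA repair and demethylation, stayed within 9.49 to 12.1 CPM and 10.4 to 14.2 CPM over all libraries. Trib1, a pseudokinase that directs protein breakdown, ranged from 13.4 to 19.3 CPM. WT library 4 was the highest WT library and WT library 1 the lowest for all 3 of these genes.

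Differences between mice of the same genotype were larger for these genes than for most. The SD of log2 CPM had a median of 0.197 within WT and 0.187 within het libraries over the 33 members. It was 0.0917 and 0.0985 over all 17913 genes tested, and 0.0619 and 0.0668 over the 11556 genes with a mean of at least 5 CPM. Of the 30 members of at least 5 CPM, 19 exceeded the SD that 9 in 10 such genes stay under within WT libraries (0.142), and 20 did so within het (0.150). The SD was larger in WT for 18 members and larger in het for 15. WT library 4 was at least 1.5 times WT library 1 for 14 members and at least 2 times for 8, which 1.19% and 0.614% of genes of at least 5 CPM reached. These were Fos, Egr1, Egr2, Arc, Nr4a1, Dusp1, Btg2 and Atf3. The widest SD within het was that of Npas4, 0.565, and the narrowest within WT that of Vgf, 0.0355.

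**Figure D5:**
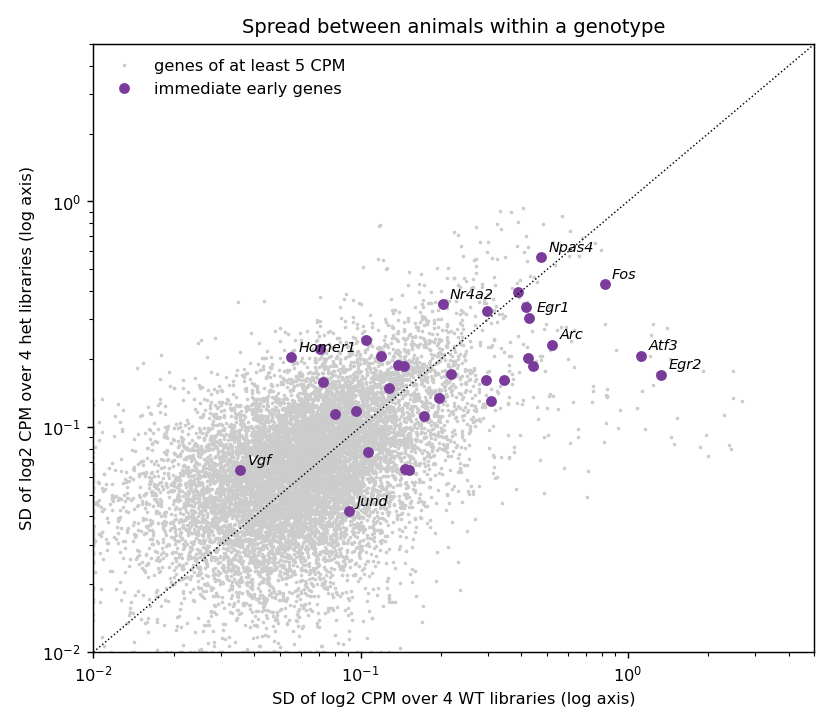
SD of log2 CPM over the 4 WT libraries (horizontal, log axis) and over the 4 het libraries (vertical, log axis) for the 33 genes (purple) and for genes with a mean of at least 5 CPM (grey); the dotted line marks equal spread. Fos and Npas4 are far out on both axes, Egr2 and Atf3 are farthest out on the WT axis, and Vgf and Jund lie among the other genes.

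Per kilobase of annotated exon, which allows genes to be set against each other, Vgf was the most abundant member at 69.2 CPM per kilobase, followed by Arc at 64.3, Jund at 39.9 (with the antisense overlap given above), Egr1 at 30.3 and Jun at 30.1. Fos stood at 8.21, Npas4 at 4.66, Egr2 at 1.17, Inhba at 0.674 and Atf3 at 0.304 CPM per kilobase. Exon lengths came from GENCODE models on GRCm38, another build than that of the counts.

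Genes that carry the signal to these promoters, and other genes that activity induces rapidly or later, were also not called. With 2.99% of all genes tested called, 0 in lists of 39 and 40 genes is close to that share. Of 39 kinases, calcium sensors and transcription factors that carry the signal to the promoter, 0 passed over all genes in edgeR (2.99% of all genes tested did), and 10 (25.6%) had an unadjusted p under 0.05, beside 17.2% of all genes. Of these 10, 9 were lower in het and 1, Crtc3, was higher. Markers of glutamatergic neurons (3 genes) had a median log2 fold change of -0.104, the 8 hippocampal markers -0.098 and 5 interneuron markers 0.062. Differences between these lists were not tested. Over all 39 genes that carry the signal the median was -0.060. The lowest p belonged to Mef2a, which encodes a transcription factor activated by calcium signalling, at 207.0 ± 6.67 CPM in WT and 183.6 ± 12.3 CPM in het (SD, n = 4 each; edgeR adjusted p = 0.0648), and to Ppp3r1, the regulatory subunit gene of calcineurin, at 733.3 ± 52.8 and 618.7 ± 57.9 CPM (edgeR adjusted p = 0.102). Of 40 other rapid or delayed activity-induced genes, 0 passed and 6 (15%) had an unadjusted p under 0.05, 4 of them higher and 2 lower in het. The median over all 40 was 0.017. Dusp4, another MAP kinase phosphatase gene, was at 18.8 ± 0.992 CPM in WT and 21.5 ± 1.34 CPM in het (SD, n = 4 each; edgeR adjusted p = 0.102), and Gem, a small GTPase gene that limits calcium channels, at 1.89 ± 0.0509 and 2.34 ± 0.0933 CPM (edgeR adjusted p = 0.147).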

How the data were processed

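The authors deposited raw read counts per Ensembl gene for 8 libraries; FastQC, STAR 2.4.2a, HTSeq and DESeq2 and the builds NCBIM37 and mm9 are named per the submitters' processing notes, while the annotation and strand setting were not named and the role of each tool is not given in the sources used here. Per the labels' protocols the amplified cDNA was primed at poly(A) tails and at random, without strand marking. The 92 ERCC spike-in rows entered neither library sizes nor tests. Symbols came from GENCODE M21 tables (32620 identifiers matched).

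Counts were TMM-scaled, filtered with filterByExpr (minimum count 10, total 15) and compared between 4 het and 4 WT libraries with edgeR 4.0.16 (quasi-likelihood, robust, two-sided, Benjamini-Hochberg over 17913 genes, threshold 0.05) in R 4.3.3, and with DESeq2 1.42.0 and limma 3.58.1 as alternatives. Intervals use the moderated degrees of freedom; SE is the log2 fold change over the root of F. Log2 CPM for SDs and scores used a prior count of 2. The edgeR step was tested on simulated data. No 2 libraries of a genotype were duplicates (chi-square per degree of freedom 7.42 to 25). Members and lists were chosen with earlier results of these data known. Per-library values are given for a preset list of members, for those with unadjusted p under 0.05 or without overlap, and for the highest mean and largest change of each role; other lists name the 2 lowest p where none is called. Values of Egr4 and Ptgs2 were added after they were seen.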

Additional observations from a re-analysis of the deposited data

Results flagged for a closer look

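In 2 of the 68 sets of 4 libraries examined (33 members and Nr2f1 in each genotype), 1 library stood far from the other 3 of its genotype. Fos in het library 2 was at 27.7 CPM, with the next het library at 16.1 CPM. Dusp6 in het library 3 was at 52.9 CPM, with the next at 67.3 CPM. Chance marks about 1 in 20 such sets.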

How the results depend on the processing

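No member was called under any alternative but 1: leaving out 1 library at a time gave 0 to 1 called, the 1 being Sik1 without WT library 4. Over those fits the median log2 fold change of the members ran from -0.065 to 0.059. Adjusted for the choroid plexus score, which did not overlap between the genotypes, the median was -0.25, and the cause was not tested. Nr2f1 was not called with ERCC scaling (-0.64, edgeR adjusted p = 0.898) and was called under every other alternative. Spike-ins made up 0.0431 to 0.0491% of counts in odd-numbered libraries and 0.0713 to 0.0787% in even-numbered ones. ERCC scaling therefore carries the difference between the mixes into every gene and is a poor guide here. Medians over the other alternatives ran from -0.12, without WT libraries 1 and 3, to 0.060, with ERCC scaling (all genes 0.091). Signs of uncalled members differed from those reported for 0 to 12 genes by alternative.

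Calls over all genes were 535, against 1200 with DESeq2's Wald test, 185 with ERCC scaling, 211 with a term for the run of animal numbers, 1 with the choroid plexus score, 171 to 767 without 1 library, 78 among even-numbered libraries, and 315 and 170 without WT libraries 1 and 4 or 1 and 3.

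Replicate numbers did not pair the animals: deviations of same-numbered libraries correlated at 0.0269, -0.0449, -0.0932 and -0.0780, and WT 4 correlated best with het 2 (0.134). With the replicate block the median was 0.0026, 0 members were called, and calls over all genes were 398. The spike-in mix as a covariate, each mix alone, and pairs of WT libraries left out together were added after seeing the data. Low counts limit Atf3, at 10 counts in WT library 1.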
